A study of Mus musculus with 8 samples.

Results

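Glucose enters a cell through transporters of the plasma membrane and is broken down to pyruvate and lactate by the enzymes of glycolysis. 10 genes of this route were examined, of 14990 genes with a tested probe on the array: the transporters Slc2a1 (GLUT1) and Slc2a4 (GLUT4), the hexokinases Hk1 and Hk2, the phosphofructokinases Pfkl, Pfkp and Pfkm, glyceraldehyde-3-phosphate dehydrogenase Gapdh, pyruvate kinase Pkm and the lactate dehydrogenase subunit Ldha. They were chosen by name, and every probe on the array whose RefSeq transcript belongs to one of these symbols was taken, 20 probes in all, all 20 of them tested. RNA came from brown adipose tissue of male mice of the strain C57BL/6NCrSlc, with one Agilent array for each mouse. Surgery was at 11 weeks of age and the tissue was taken at 13 weeks. The TAC group, 4 arrays, had thoracic aortic constriction, which narrows the aorta and loads the heart with pressure, and the Sham group, 4 arrays, had the sham operation. The source and treatment labels put the collection 2 weeks after surgery, which matches these ages, whereas the description gives 4 weeks. The comparison asks which of the 10 transcripts differ in brown fat between mice with and without this load on the heart.

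Brown adipocytes burn fatty acids and glucose to make heat. GLUT1 serves basal uptake of glucose in many cells, and GLUT4 moves to the cell surface when insulin signals. Hexokinase traps glucose as glucose 6-phosphate, phosphofructokinase makes the committed step of glycolysis, and the later enzymes yield ATP, pyruvate and lactate. Several of these enzymes exist as isoforms from separate genes, and Pfkm is the form named for muscle.

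Scanner intensities were deposited for 7 arrays (Sham replicates 2, 3 and 4 and all 4 of TAC), and a table of scaled intensities for all 8. A level is given here as the log2 of the scanner intensity relative to the 75th percentile of its array, so that 0 is the brightness of that percentile, and a difference is TAC minus Sham on this log2 scale. Levels in the deposited table are the log2 of its scaled intensity, and they run slightly above the scanner levels because the scaling constant of an array differs. Between 54.5% and 64.3% of the spots of an array were well above background, and the representative probes of all 10 genes were so on all 7 arrays. The number of arrays limits the precision. All 7 scanner files come from 1 slide and 1 scan, with the Sham arrays in the first slide row and the TAC arrays in the second, so slide row and surgery cannot be told apart.

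TAC replicate 1 stood apart from the other arrays. In the table of 8 arrays its Pearson r with the other TAC arrays was between 0.978 and 0.983, and on the leading principal component, with 34.5% of the variance, it lay at 0.49 whereas the other 7 arrays lay between −0.18 and 0.02. It had the lowest level of the 8 arrays for 5 of the 10 genes, and Sham replicate 3 had the highest for 9 of the 10. Values without either array are therefore given for the 10 genes and the other glycolysis enzymes, and the counts of the remaining lists are given with all arrays.

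The tissue label was checked with markers. All 15 brown adipocyte markers were well above background on every scanner array. Their summed scaled intensity was 4950, 5993 and 5211 on Sham replicates 2, 3 and 4 and 3989, 5285, 5004 and 5089 on TAC replicates 1 to 4, with Cidea the brightest. Of these markers 13 had a difference below 0 and 2 above, the lowest was −2.48, and the median was −0.16. At an unadjusted p under 0.05, 0 markers were higher and 3 lower on the scanner arrays, and 5 lower in the table of 8 arrays. Over all probes, 4.38% were higher and 8.43% lower on the scanner arrays, and 9.56% were lower in the table. For Ucp1, the uncoupling protein that makes heat, the difference was −0.61 (SE 0.21, unadjusted p 0.0247, limma adjusted p 0.336), and for the adipokine Adipoq it was 0.18 (unadjusted p 0.111). In whole tissue, fewer cells of a type and less RNA per cell cannot be told apart.

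None of the 33364 probes passed limma's test at an adjusted p under 0.05, 0% higher and 0% lower after TAC, and none of the 10 genes did. With no adjustment, a p under 0.05 was reached by 1462 probes with a higher level (4.38%) and by 2814 with a lower one (8.43%). Of the 10 genes, 5 were lower at that unadjusted threshold, Pfkl, Pfkp, Gapdh, Pkm and Ldha, and 0 were higher. The difference was below 0 for 9 of the 10 genes, as it was for 55.8% of all probes, and above 0 for Pfkm. The median difference of the 10 genes was −0.40, beside −0.03 over all probes. For the same 5 genes every TAC array lay below every Sham array among the 7 scanner arrays, which was so of 10.4% of all probes, and every TAC array lay above every Sham array for 0 of the 10 genes, beside 5.59% of all probes. In the table of 8 arrays 5 genes again had an unadjusted p under 0.05 and were lower, beside 9.56% of all probes, and 0 were higher, beside 4.65%, and the median was −0.30. In that table every TAC array lay below every Sham array for 3 genes, Slc2a4, Pfkp and Ldha, and for 6.29% of all probes, and above every Sham array for 0 genes and 3.53% of all probes. Without TAC replicate 1, 6 genes had an unadjusted p under 0.05 and were lower and the median was −0.44, with Hk1 as the added gene (difference −0.43, unadjusted p 0.0221), and 2819 of all 33364 probes were lower at that threshold. Without Sham replicate 3, 4 genes did and the median was −0.30, with the unadjusted p of Gapdh at 0.0503, and the count over all probes was 1602.

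**Figure D1:**
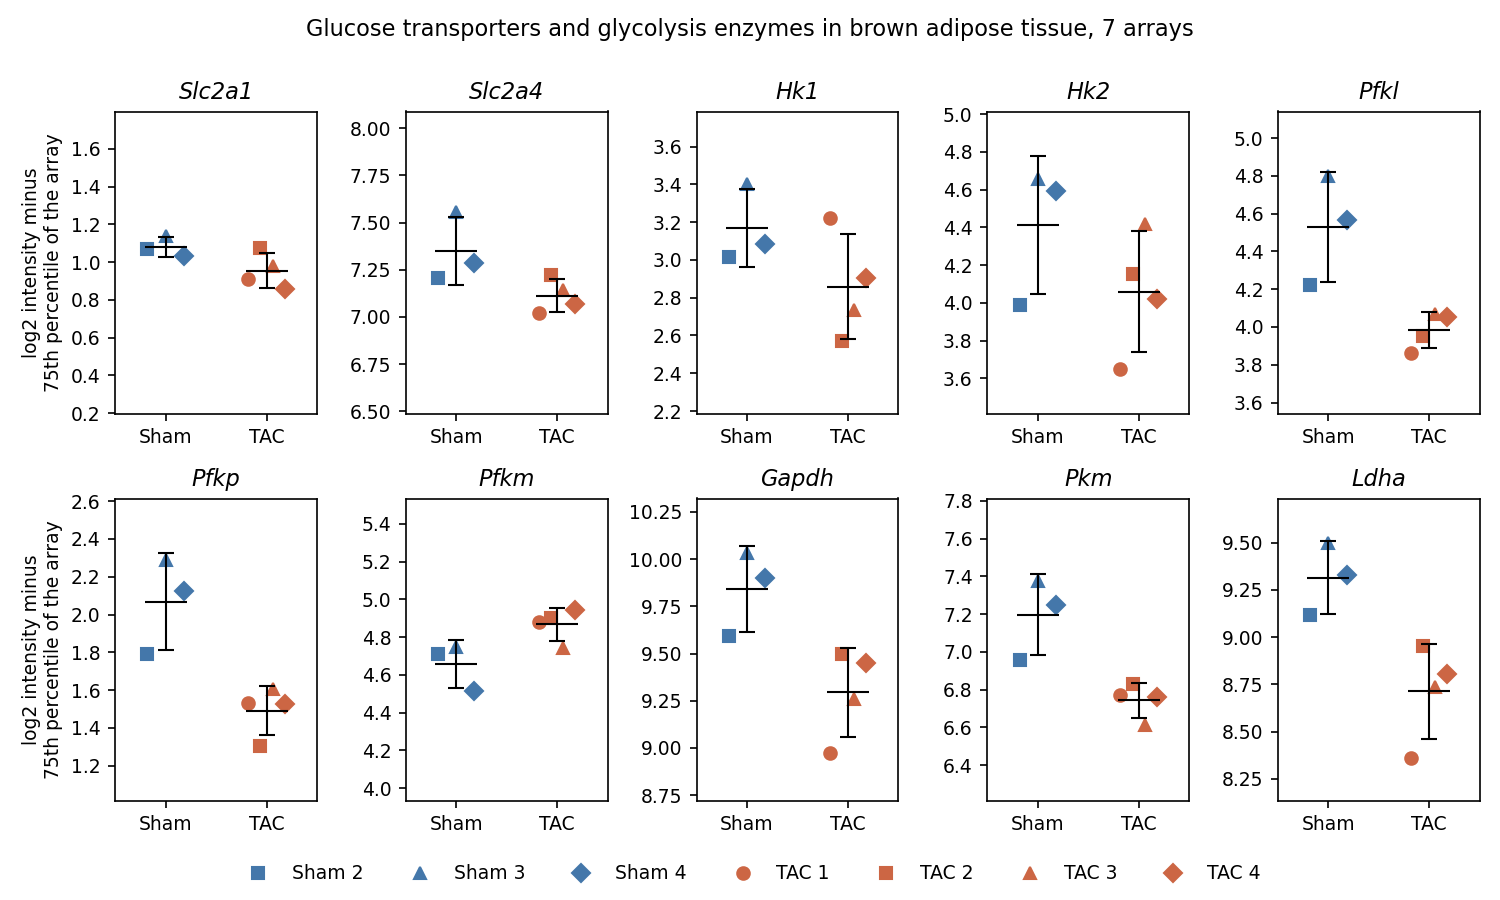
Level of each of the 10 genes on the 7 scanner arrays, as log2 intensity relative to the 75th percentile of the array; points are arrays, and bars are the group mean and standard deviation of 3 Sham and 4 TAC arrays. The groups do not overlap for Pfkl, Pfkp, Gapdh, Pkm and Ldha, and Pfkm alone has the higher mean after TAC.

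Both transporters had a small difference. Slc2a4 encodes GLUT4, the transporter that insulin moves to the surface. Its level was 7.21, 7.55 and 7.29 on Sham replicates 2, 3 and 4 and 7.02, 7.22, 7.14 and 7.07 on TAC replicates 1 to 4. Sham replicate 2 lay just below TAC replicate 2, the one place where the groups overlapped, and the difference was −0.24 (SE 0.11, 95% interval −0.50 to 0.02, unadjusted p 0.0685, limma adjusted p 0.426). In the table of 8 arrays the Sham levels were 7.42, 7.41, 7.74 and 7.48 and the TAC levels 7.21, 7.40, 7.32 and 7.24, so that the groups were apart there by a narrow gap. The difference in the table was −0.22 (unadjusted p 0.0524). On the scanner arrays without Sham replicate 3 it was −0.13 (unadjusted p 0.241), without Sham replicate 2 it was −0.31 (unadjusted p 0.0425), and without TAC replicate 1 it was −0.21. With quantile normalization it was −0.12 (unadjusted p 0.157), and with normexp background correction −0.24 (unadjusted p 0.0329).

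Slc2a1 encodes GLUT1, the transporter of basal uptake. Its level was 1.07, 1.14 and 1.03 on the Sham arrays and 0.91, 1.07, 0.98 and 0.86 on the TAC arrays. The groups overlapped at TAC replicate 2, and the difference was −0.12 (SE 0.09, 95% interval −0.33 to 0.08, unadjusted p 0.191, limma adjusted p 0.559). Sham replicate 1, which only the table holds, had the lowest Slc2a1 level of its 8 arrays, and the difference in the table was −0.07. On the scanner arrays it was −0.11 without TAC replicate 1 and −0.10 without Sham replicate 3. The log2 ratio of Slc2a4 over Slc2a1 within an array was lower after TAC by 0.11, with an exact permutation p of 0.2 over the 35 splits of the 7 arrays.

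Hk1 and Hk2 encode the hexokinases that phosphorylate glucose after uptake. The level of Hk2 was 3.99, 4.65 and 4.59 on Sham replicates 2, 3 and 4 and 3.65, 4.15, 4.42 and 4.02 on TAC replicates 1 to 4. Sham replicate 2 lay within the TAC range, and the difference was −0.35 (SE 0.23, 95% interval −0.89 to 0.19, unadjusted p 0.167, limma adjusted p 0.536). It depended on single arrays, at −0.56 without Sham replicate 2 (unadjusted p 0.0395), −0.23 without Sham replicate 3 and −0.22 without TAC replicate 1, and it was −0.20 in the table of 8 arrays. Hk1 had levels of 3.02, 3.40 and 3.09 on the Sham arrays and 3.22, 2.57, 2.74 and 2.91 on the TAC arrays. Here TAC replicate 1 was the second highest of the 7 arrays while the other TAC arrays lay below every Sham array. The difference of Hk1 was −0.31 (SE 0.18, 95% interval −0.73 to 0.10, unadjusted p 0.121, limma adjusted p 0.491), and its second probe had −0.21. Without Sham replicate 3 the difference of Hk1 was −0.19, and in the table of 8 arrays it was −0.25. The ratio of Hk2 over Hk1 differed by −0.04 on the scanner arrays and by 0.04 in the table of 8 arrays, with exact permutation p-values of 0.886 and 0.914.

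Phosphofructokinase is a tetramer of subunits from Pfkl, Pfkp and Pfkm, forms first named for liver, platelet and muscle. The level of Pfkl was 4.22, 4.80 and 4.56 on Sham replicates 2, 3 and 4 and 3.86, 3.95, 4.07 and 4.05 on TAC replicates 1 to 4. All 4 TAC arrays were below the Sham arrays and lay close together, and the difference was −0.54 (SE 0.14, 95% interval −0.89 to −0.20, unadjusted p 0.00682, limma adjusted p 0.251). In the table, Sham replicate 1 was at 4.13 and so inside the TAC range of 4.05 to 4.25, and the difference was −0.41 (unadjusted p 0.0478).

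Pfkp had levels of 1.79, 2.29 and 2.13 on the Sham arrays and 1.53, 1.31, 1.60 and 1.53 on the TAC arrays. The groups did not overlap, on the scanner arrays or in the table, where Sham replicate 1 was at 1.83 and the highest TAC array at 1.79. The difference was −0.58 (SE 0.14, 95% interval −0.91 to −0.25, unadjusted p 0.0044, limma adjusted p 0.222), and the second probe of Pfkp had −0.44. In the table the difference was −0.48 (unadjusted p 0.0124).

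Pfkm was the one gene of the 10 with a difference above 0. Its level was 4.71, 4.75 and 4.51 on Sham replicates 2, 3 and 4 and 4.88, 4.90, 4.74 and 4.94 on TAC replicates 1 to 4. The arrays of each group lay within a narrow range, and TAC replicate 3 was the TAC array that fell among the Sham arrays. The difference was 0.21 (SE 0.10, 95% interval −0.02 to 0.44, unadjusted p 0.0663, limma adjusted p 0.42), and in the table of 8 arrays it was 0.19 (unadjusted p 0.0541). Without Sham replicate 4 it was 0.14 (unadjusted p 0.233), and with quantile normalization 0.30 (unadjusted p 0.0178). It was 0.20 without TAC replicate 1 and 0.25 without Sham replicate 3.

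The balance of phosphofructokinase subunits was compared within each array as a log2 ratio of probes, chosen after the values were seen and among 5 pairs in all. A ratio of this kind describes unequal change between genes and gives no ratio of transcripts, because probes differ in brightness. Since the pairs were chosen on these values, the permutation p-values describe the separation of the arrays and cannot serve as a test. Pfkm over Pfkl was 0.49, −0.05 and −0.05 on the Sham arrays and 1.02, 0.95, 0.68 and 0.89 on the TAC arrays. All 4 TAC arrays were above the 3 Sham arrays, a difference of 0.75 with an exact permutation p of 0.0286, the smallest that 35 splits allow, and 0.0714 after adjustment over the 5 pairs. With Sham replicate 1 of the table, at 0.74, the groups overlapped, and the difference was 0.60 (exact permutation p 0.0571). Pfkm over Pfkp was 2.92, 2.46 and 2.39 on the Sham arrays and 3.35, 3.60, 3.14 and 3.42 on the TAC arrays, a difference of 0.79 (exact permutation p 0.0286, adjusted 0.0714). Sham replicate 1 of the table, at 3.04, also lay below the TAC arrays, and the difference over the 8 arrays was 0.67 (exact permutation p 0.0286, adjusted 0.143). Pfkp over Pfkl differed by −0.03 (exact permutation p 0.686).

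Of the later enzymes, Gapdh oxidizes glyceraldehyde 3-phosphate and yields NADH. Its level was 9.59, 10.03 and 9.90 on Sham replicates 2, 3 and 4 and 8.98, 9.50, 9.26 and 9.45 on TAC replicates 1 to 4. The TAC arrays were all below the Sham arrays, with TAC replicate 1 the lowest. The difference was −0.55 (SE 0.16, 95% interval −0.93 to −0.16, unadjusted p 0.0125, limma adjusted p 0.29). All 7 Gapdh probes had a difference below 0, from −0.85 to −0.55, each with an unadjusted p under 0.05. In the table Sham replicate 1, at 9.64, lay just below TAC replicate 2, at 9.67, and the difference was −0.46 (unadjusted p 0.0214).

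Pkm encodes the pyruvate kinase that makes pyruvate and ATP in most tissues other than liver and red cells. Its level was 6.96, 7.38 and 7.25 on the Sham arrays and 6.77, 6.83, 6.61 and 6.76 on the TAC arrays. The groups did not overlap, and the TAC arrays lay within a narrower range than the Sham arrays. The difference was −0.45 (SE 0.12, 95% interval −0.74 to −0.17, unadjusted p 0.00688, limma adjusted p 0.252). In the table Sham replicate 1, at 6.97, lay among the TAC arrays, and the difference was −0.36 (unadjusted p 0.0288). The splice forms of Pkm were not told apart by its 1 probe.

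Ldha encodes the subunit of lactate dehydrogenase that prevails in muscle and in cells with high glycolysis. Its level was 9.12, 9.50 and 9.33 on Sham replicates 2, 3 and 4 and 8.36, 8.95, 8.74 and 8.80 on TAC replicates 1 to 4. No TAC array reached the lowest Sham array, and TAC replicate 1 was the lowest. The difference was −0.60, or 1.52-fold lower, with SE 0.16, a 95% interval from −0.99 to −0.22, an unadjusted p of 0.00750 and a limma adjusted p of 0.259. Its 3 probes had differences from −0.72 to −0.60, each with an unadjusted p under 0.05. In the table Sham replicate 1 was at 9.23 and the highest TAC array at 9.13, and the difference was −0.55 (unadjusted p 0.00631). Without TAC replicate 1 the difference was −0.49 for Ldha, −0.44 for Gapdh, −0.46 for Pkm, −0.50 for Pfkl and −0.59 for Pfkp. Without Sham replicate 3 it was −0.51 for Ldha, −0.45 for Gapdh, −0.36 for Pkm, −0.41 for Pfkl and −0.47 for Pfkp.

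The other enzymes of glycolysis carry the remaining steps and the isoforms not among the 10. Of 21 such genes 17 were tested, and Hkdc1, Pgk2 and Pklr were among those that did not pass the filter on dim probes. The difference was above 0 for 6 and below 0 for 11, with a median of −0.08, and at an unadjusted p under 0.05 there were 0 higher and 5 lower. The median was −0.000598 without Sham replicate 3 and −0.12 without Sham replicate 4, with 3 genes lower in either case. Without TAC replicate 1 it was −0.04 with 6 lower, and in the table of 8 arrays it was −0.03 with 4 lower. Of all 33364 probes, 1462 were higher and 2814 lower at that threshold on the 7 scanner arrays. The lower count was 1602 without Sham replicate 3, 2055 without Sham replicate 4, 2819 without TAC replicate 1 and 3189 in the table. On the 7 scanner arrays the 5 were Eno1, Gpi1, Aldoa, Pgk1 and Ldhc. Enolase Eno1 was at 8.79, 9.14 and 9.19 on the Sham arrays and at 8.20, 8.57, 8.35 and 8.51 on the TAC arrays, with no overlap and a difference of −0.63 (unadjusted p 0.00259, limma adjusted p 0.197). Glucose-6-phosphate isomerase Gpi1 differed by −0.51 (limma adjusted p 0.222) and aldolase Aldoa by −0.56 (limma adjusted p 0.27). Phosphoglycerate kinase Pgk1, named after its values were seen, differed by −0.30 (unadjusted p 0.0138). Ldhc, the testis form of lactate dehydrogenase, was well above background on none of the 4 TAC arrays. With each TAC level set no lower than the dimmest signal well above background on its array, its mean was 1.47-fold lower. That value is a bound on the means and leaves out sampling error. Ldhc passed the filter only through the Sham arrays. With a filter that requires every array to be well above background 16 genes were left, 4 of them lower at an unadjusted p under 0.05. Pgk1 differed by −0.21 in the table of 8 arrays (unadjusted p 0.121), and Sham replicate 1, at 7.26, was below every TAC array there. Also named after their values were seen, triosephosphate isomerase Tpi1 differed by −0.03 (95% interval −0.22 to 0.17) and the lactate dehydrogenase subunit Ldhb by 0.00 (95% interval −0.19 to 0.20). The mutase Pgam1 differed by −0.14 (95% interval −0.33 to 0.04), with all 4 TAC arrays of the scanner files below the Sham arrays, whereas in the table Sham replicate 1, at 7.39, was below every TAC array and the difference was −0.07. Whether these differences are unlike those of Gapdh or Aldoa was not tested.

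**Figure D2:**
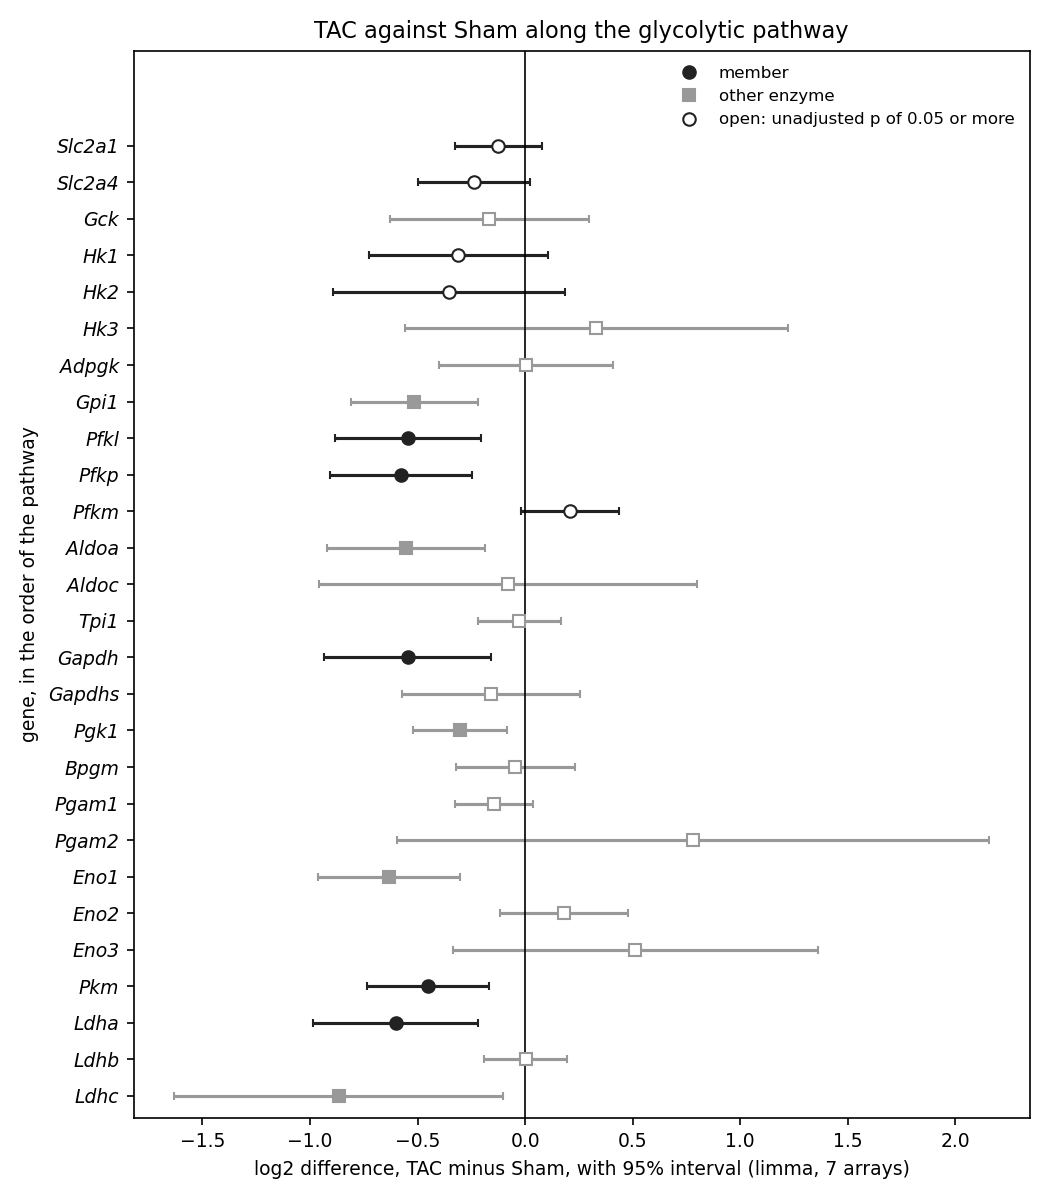
Difference, TAC minus Sham, in log2 intensity for the genes of glycolysis in the order of the pathway, with its 95% interval from limma over 7 arrays; filled points have an unadjusted p under 0.05. Among the filled points all lie below 0, and the muscle forms Eno3 and Pgam2 have wide intervals that span 0.

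Acta1, the actin of skeletal muscle, varied widely between arrays of the same group. In the table of 8 arrays its level was 4.54, 2.62, 4.19 and 3.36 on Sham replicates 1 to 4 and 5.24, 4.46, 2.65 and 5.13 on TAC replicates 1 to 4. A low array was present in each group, Sham replicate 2 and TAC replicate 3, and the groups overlapped. On the scanner arrays the difference of Acta1 was 0.998 (SE 0.68, unadjusted p 0.185, limma adjusted p 0.555), and that of muscle creatine kinase Ckm was 1.16 (unadjusted p 0.134). Of 26 skeletal muscle markers, 25 had a difference above 0, with a median of 0.90, and 1, Tpm2, was higher at an unadjusted p under 0.05. All but Tnni1 were well above background on every scanner array. Their summed scaled intensity was 108, 308 and 170 on Sham replicates 2, 3 and 4 and 431, 357, 117 and 464 on TAC replicates 1 to 4, with Myl1 the brightest. In the table of 8 arrays the sum was 348, 124, 351 and 194 on Sham replicates 1 to 4. It was 491, 404, 133 and 523 on TAC replicates 1 to 4. The median difference there was 0.61, with 2 markers higher at an unadjusted p under 0.05, beside 4.65% of all probes. The part of these muscle transcripts in the differences of the 10 genes was not tested beyond the correlations with Acta1, Ckm and the mean of these markers.

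Whether the 10 genes follow Acta1 from array to array was measured over the 8 arrays of the table, with exact permutation over all 40320 pairings, 10 correlations in all. Pfkm had the highest r of the 10, 0.606 (two-sided exact p 0.111), with a Spearman rho of 0.548 (exact p 0.171). Adjusted over the 33363 probes compared with Acta1, the p of Pfkm was 0.854, and 3.89% of these probes had an r at least as high. Without the 2 arrays farthest from the median of Acta1, Sham replicate 2 and TAC replicate 3, r was 0.872 over 6 arrays (exact p 0.025) and rho 0.6 (exact p 0.242). With the group means taken out, r was 0.547 (exact p 0.134) and rho 0.238 (exact p 0.582). With Ckm in place of Acta1, r was 0.664 (exact p 0.0711) and rho 0.714 (exact p 0.0576). Over the 7 scanner arrays r was 0.701 (exact p 0.0683) and rho 0.786 (exact p 0.048). The mean of the skeletal muscle markers in place of Acta1 gave r 0.574 (exact p 0.137) and rho 0.738 (exact p 0.0458). The muscle form of phosphofructokinase thus had a positive r with the muscle transcripts in each of these calculations. Its r with Acta1 did not pass the test over the 8 arrays. Whether its r differs from those of the other genes was not tested.

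Of the other 9 genes, Hk1 had an r of 0.11 with Acta1 and 8 had r below 0, from −0.51 for Slc2a1 to −0.15 for Pkm. GLUT4 and hexokinase 2, which muscle fibres also express, had r of −0.25 for Slc2a4 and −0.50 for Hk2. With the group means taken out, r was 0.348 for Hk1 (rho 0.405), 0.169 for Pkm and 0.00407 for Slc2a4. The r of Hk1 turned to −0.08 without TAC replicate 1 and to −0.11 without TAC replicate 3. With the group means left in, 0 of the 10 had an r above 0 at an exact p under 0.05 and 0 an r below 0, beside 2.06% and 3.51% of all probes, and the median r was −0.32 for the 10 genes and −0.13 for all probes. Without Sham replicate 2 and TAC replicate 3, r was −0.815 for Gapdh (exact p 0.0347, rho −0.943) and −0.821 for Ldha (exact p 0.0403, rho −0.886) over 6 arrays. Slc2a4, Hk2 and Pkm had the same rho as Ldha over these 6 arrays (−0.886, exact p 0.0333), with exact p of r from 0.0514 to 0.174. The group means were left in these 6 arrays, and the share of all probes with such values was not computed over them. Over all 8 arrays r was −0.30 for Gapdh and −0.37 for Ldha, and with the group means taken out of the 8 arrays it was −0.06 and −0.15. Without TAC replicate 1, over the other 7 arrays, it was 0.00735 for Gapdh and −0.07 for Ldha.

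Some muscle isoforms of other enzymes, picked out after their values were seen among 177 genes of the lists, had a high r with Acta1. For the muscle enolase Eno3, r was 0.967 (exact p 0.000719, rho 0.905 with exact p 0.00456, adjusted over all probes 0.289), and 0.901 without Sham replicate 2 and TAC replicate 3. For the muscle phosphoglycerate mutase Pgam2, r was 0.981 (exact p 0.000397, rho 0.881 with exact p 0.00724, adjusted over all probes 0.241), and 0.941 without those arrays. The levels of Pgam2 were 0.15, 1.58 and 0.68 on Sham replicates 2, 3 and 4 and 2.04, 1.89, 0.10 and 2.30 on TAC replicates 1 to 4, low on the same arrays as Acta1. Its difference between the groups was 0.78 (unadjusted p 0.222), and that of Eno3 was 0.51 (unadjusted p 0.197). Since Sham replicate 2 and TAC replicate 3 were low, both differences depend on which arrays are included. In the table of 8 arrays they were 0.59 and 0.40. Pgam2 and Eno3 were the 2 of the 17 other glycolysis genes with an r above 0 at an exact p under 0.05, beside 2.06% of all probes. The same condition was met by 22 of 25 skeletal muscle markers. Other forms that muscle expresses had r below 0, −0.59 for the fructose bisphosphatase Fbp2 and −0.24 for Aldoa. No probe passed an adjusted p under 0.05 in this comparison, where the lowest was 0.216.

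**Figure D3:**
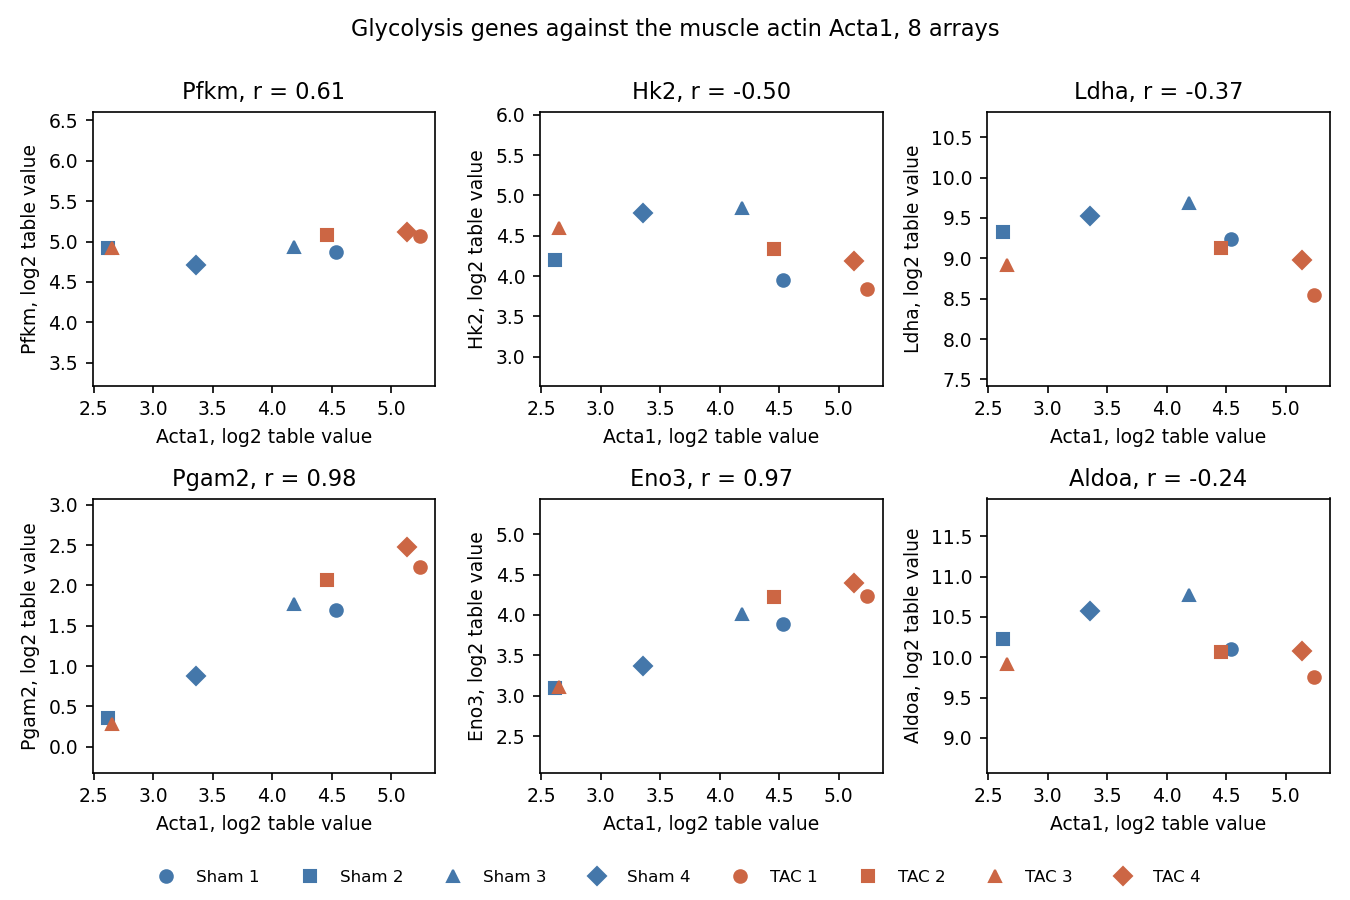
Level of Pfkm, Hk2, Ldha, Pgam2, Eno3 and Aldoa against the level of Acta1 on the 8 arrays of the deposited table, both as log2 scaled intensity; each point is an array. Pgam2 and Eno3 lie along a line with Acta1 (r 0.981 and 0.967), Pfkm less closely (r 0.606), and Hk2 and Ldha have r below 0.

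The 10 genes were also compared with each other over the 8 arrays of the table, as a description. All 36 pairs of the 9 genes other than Pfkm had an r above 0, from 0.18 to 0.98, with a median of 0.72. With the group means taken out, 35 of the 36 stayed above 0, with a median of 0.67. Among Pfkl, Pfkp, Gapdh, Pkm and Ldha the 10 pairs ran from 0.78 to 0.98, and from 0.40 to 0.97 with the group means taken out. Gapdh and Ldha were the closest pair, with r 0.978. Pfkm had an r below 0 with each of the 9 others, from −0.68 to −0.23, and with the group means taken out 4 of those 9 were above 0.

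Genes elsewhere on the array with the most similar pattern were sought among 13663 genes over the 7 scanner arrays, as a description. Each r below was picked as one of the highest of so many over few arrays, with the group means left in. Such a search returns high values by its selection, so the r describe likeness on these arrays and test no relation. For Ldha they were Lig1 (r 0.998), Me1 (r 0.997) and Taldo1 (r 0.994). For Pkm they included Gpi1 (r 0.995) and Acox2 (r 0.988). For Gapdh they were Gm5523, Gm8709 and Gm12070, with r from 0.996 to 0.999, which RefSeq lists as transcribed pseudogenes, and whether their probes also bind Gapdh RNA was not tested. Pfkl was most like Ywhae, Mapre1 and Tmem120b (r 0.990 to 0.992), and Pfkp most like Syap1, Ank and Gdap2 (r 0.976 to 0.981). Pfkm was most like Bard1, Stag1 and Gm13889 (r 0.954 to 0.983). For Slc2a1 the genes included Gins1, Cep85 and Tmem164, for Slc2a4 Gstp2, Rhbdd2 and Dnajc19, for Hk1 Gnpda2 and Carns1, and for Hk2 Tank, Zfp652 and Zbed4, with r from 0.973 to 0.990.

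Because Pfkl, Pfkp, Gapdh, Pkm and Ldha were lower at an unadjusted p under 0.05, the promoters were read from the RefSeq table of build GRCm38.p6. It held 9 of the 10 genes. The 250 bases before the start farthest upstream were searched on both strands for ACGTG and GCGTG, the core letters of the element that hypoxia-inducible factors bind, and for CACGTG, an E-box. CACGTG contains ACGTG on both strands, so each CACGTG counts as 2 matches of ACGTG. A match of ACGTG or GCGTG was found in 38.6% of 27025 promoters and in 7 of the 9, and CACGTG in 6.04% of promoters and in 2 of the 9, Ldha and Pfkm. The window of Ldha held 5 matches, that of Pfkp 3, those of Gapdh, Pfkm, Hk2 and Slc2a1 2 each, and that of Pfkl 1. The window of Pkm held 0, as did that of Hk1. The windows of 4 genes with an unadjusted p under 0.05 are shown from 5′ to 3′ on the strand of the gene, with the matched letters in capitals (CACGT and CACGC are the matches of the other strand). Ldha lies at chr7:46845554-46845803 on the plus strand, Pfkp at chr13:6648772-6649021, Gapdh at chr6:125165774-125166023 and Pfkl at chr10:78009808-78010057, these 3 on the minus strand.
Ldha: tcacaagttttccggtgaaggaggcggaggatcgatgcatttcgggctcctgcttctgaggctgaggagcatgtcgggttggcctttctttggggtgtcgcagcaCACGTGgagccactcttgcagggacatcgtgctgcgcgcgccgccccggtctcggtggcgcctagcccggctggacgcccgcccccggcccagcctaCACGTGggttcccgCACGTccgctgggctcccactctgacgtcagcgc
Pfkp: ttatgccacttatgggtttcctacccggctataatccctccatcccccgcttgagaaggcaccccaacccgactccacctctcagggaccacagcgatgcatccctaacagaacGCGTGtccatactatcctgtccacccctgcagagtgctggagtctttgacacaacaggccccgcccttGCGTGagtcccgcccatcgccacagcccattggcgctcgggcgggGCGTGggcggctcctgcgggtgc
Gapdh: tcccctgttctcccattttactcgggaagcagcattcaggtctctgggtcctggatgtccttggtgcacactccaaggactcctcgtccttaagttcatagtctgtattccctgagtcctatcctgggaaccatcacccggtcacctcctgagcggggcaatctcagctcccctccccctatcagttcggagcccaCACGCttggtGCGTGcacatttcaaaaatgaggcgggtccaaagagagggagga
Pfkl: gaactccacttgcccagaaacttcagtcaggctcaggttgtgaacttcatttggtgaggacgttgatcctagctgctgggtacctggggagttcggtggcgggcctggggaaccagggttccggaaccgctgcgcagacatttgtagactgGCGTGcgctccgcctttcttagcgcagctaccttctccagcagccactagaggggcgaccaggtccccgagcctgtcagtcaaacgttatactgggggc
These matches describe the letters in the window and show no binding.

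Targets of hypoxia-inducible factors outside glycolysis were listed for comparison. Of 18 genes 15 were tested, 7 with a difference above 0 and 8 below, with a median of −0.11. At an unadjusted p under 0.05 there were 2 higher and 2 lower, beside 4.38% and 8.43% of all probes. Pdk1, a mitochondrial kinase that inhibits pyruvate dehydrogenase, had levels of 2.00, 1.96 and 1.85 on the Sham arrays and of 1.15, 1.46, 1.14 and 1.34 on the TAC arrays. These groups did not overlap, and its difference was −0.66 (unadjusted p 0.000462, limma adjusted p 0.196). Higd1a differed by −0.47 (limma adjusted p 0.285) and Ndrg1 by 0.38 (limma adjusted p 0.306). The table of 8 arrays had 1 gene of this list higher and 2 lower at an unadjusted p under 0.05, beside 4.65% and 9.56% of all probes.

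The pentose phosphate pathway and glycogen share glucose 6-phosphate with glycolysis. Of 9 genes of the pentose phosphate pathway 8 were tested, 2 with a difference above 0 and 6 below, with a median of −0.55. The difference was below 0 for 55.8% of all probes. At an unadjusted p under 0.05 there were 1 higher and 5 lower, beside 4.38% and 8.43% of all probes. Pgd, which makes NADPH as it oxidizes 6-phosphogluconate, was at 4.88, 5.39 and 5.11 on the Sham arrays and at 3.45, 4.16, 3.96 and 3.95 on the TAC arrays. The gap between these groups was wide, and the difference was −1.25 (SE 0.20, unadjusted p 0.000364, limma adjusted p 0.196). G6pdx, the first enzyme of that pathway, differed by −0.64 (limma adjusted p 0.196), and the lactonase Pgls by 0.38 (limma adjusted p 0.197). Of 21 glycogen genes 4 had a difference above 0 and 17 below, with a median of −0.21. At an unadjusted p under 0.05, 0 were higher and 7 lower, beside the same 4.38% and 8.43% of all probes. Glycogen phosphorylase Pygl differed by −1.27 (limma adjusted p 0.196) and the branching enzyme Gbe1 by −0.68 (limma adjusted p 0.197). With Acta1 the median r of the 21 glycogen genes was −0.27. Of them, 3 had an r above 0 at an exact p under 0.05, beside 2.06% of all probes. Named after their values were seen, these were Phkg1 (r 0.983), Ppp1r3a (r 0.978) and Pygm (r 0.953). Their exact p adjusted over all probes ran from 0.216 to 0.298. Ppp1r3a was well above background on 2 Sham and 3 TAC scanner arrays.

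The bifunctional enzymes that set the activity of phosphofructokinase and the bypass of gluconeogenesis made a list of 9 genes, all tested, 2 with a difference above 0 and 7 below, with a median of −0.25. At an unadjusted p under 0.05 there were 0 higher and 2 lower, beside 4.38% and 8.43% of all probes. The 2 were Fbp2 and Fbp1, the fructose bisphosphatases that run the reverse of the phosphofructokinase step. Fbp2 was at 0.56, 0.84 and 0.35 on the Sham arrays and at −1.16, −0.36, −0.25 and −0.52 on the TAC arrays, a difference of −1.15 without overlap (limma adjusted p 0.197). Fbp1 differed by −0.81 (limma adjusted p 0.353), and Pfkfb1 by 0.38 (unadjusted p 0.0504). At that threshold 1 gene was higher and 1 lower in the table of 8 arrays, beside 4.65% and 9.56% of all probes. There Fbp1 had an unadjusted p of 0.0561 and Pfkfb1, with a difference of 0.36, had 0.0371.

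Beside Slc2a1 and Slc2a4, 13 of 16 other carriers of glucose, fructose and lactate were tested, 9 with a difference above 0 and 4 below, with a median of 0.12. At an unadjusted p under 0.05, Slc2a3 was higher and Slc2a5 and Slc2a9 were lower. Over all probes, 4.38% were higher and 8.43% lower at that threshold. The fructose transporter Slc2a5 had levels of 1.19, 2.92 and 2.61 on the Sham arrays and of −3.42, −0.89, −2.16 and −0.47 on the TAC arrays. The groups were far apart, with a difference of −3.97, or 15.7-fold lower (SE 0.76, unadjusted p 0.00121, limma adjusted p 0.197), and Sham replicate 1 of the table, at 0.69, was also above the TAC arrays. Slc2a3 (GLUT3) differed by 0.82 (limma adjusted p 0.333) and Slc2a9, a carrier of urate, by −0.83 (limma adjusted p 0.34). The level of Slc2a3 was −0.46, −1.04 and 0.28 on the Sham arrays and 0.19, 0.44, 0.52 and 0.51 on the TAC arrays. Sham replicate 3 was the lowest, and Sham replicate 4 lay above TAC replicate 1. Of 14 genes for the traffic and control of glucose transporters, 8 had a difference above 0 and 6 below, with a median of 0.01, and 0 were higher and 2 lower at an unadjusted p under 0.05. Those were Arrdc4 (difference −0.73, limma adjusted p 0.273), whose other probe had 0.01, and the syntaxin Stx4a, which takes part in GLUT4 fusion with the membrane (difference −0.28, limma adjusted p 0.33). The sorting receptor Sort1 differed by −0.30 (unadjusted p 0.101), and its other probes had −0.16 and 0.38. Sort1 was also lower in the table of 8 arrays at an unadjusted p under 0.05 (difference −0.31), which made 3 genes, beside 9.56% of all probes.

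**Figure D4:**
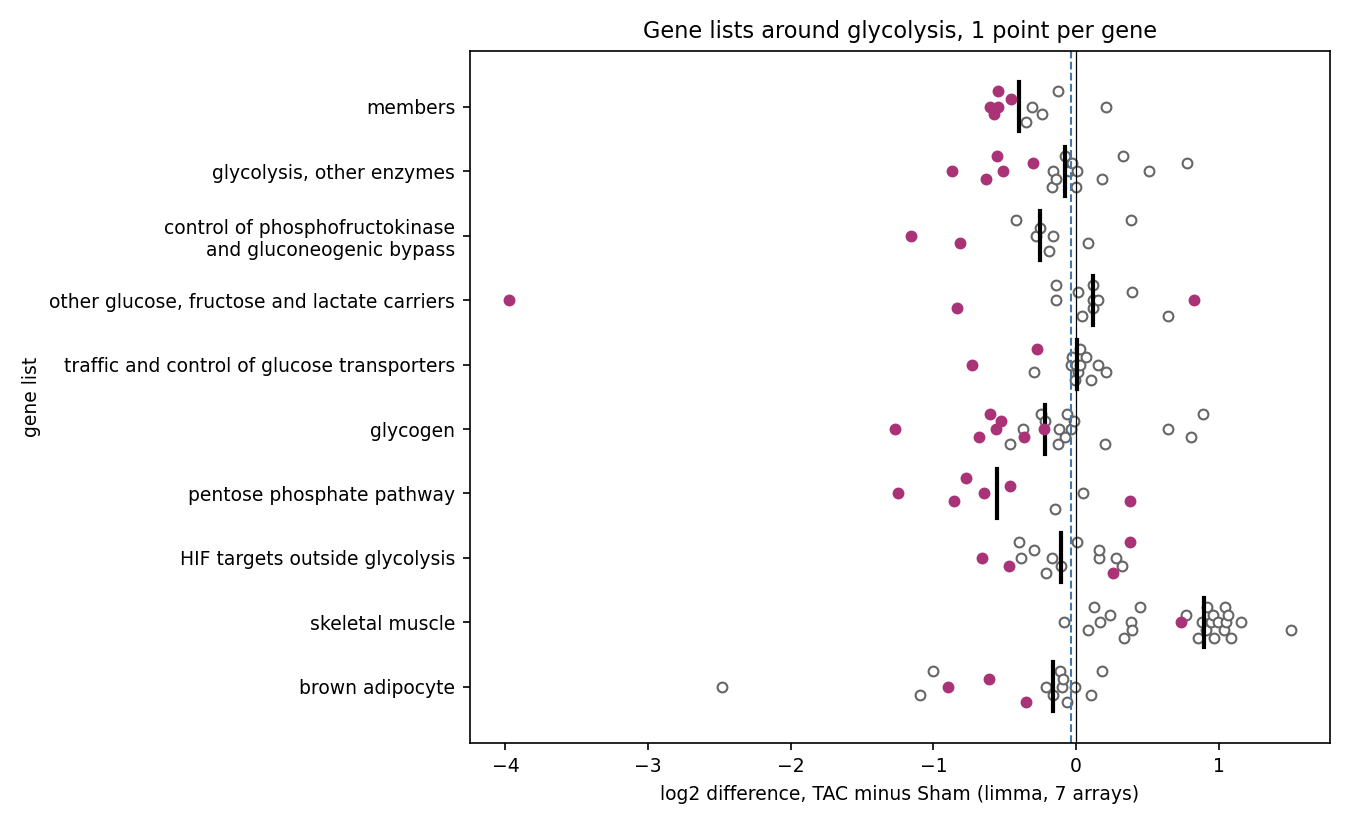
Difference, TAC minus Sham, in log2 intensity for each tested gene of the 10 genes, the pathway lists and the skeletal muscle and brown adipocyte markers over 7 arrays; purple points have an unadjusted p under 0.05, black bars are list medians, and the dashed line is the median of all probes, −0.03. The median of the 10 genes is −0.40, that of the pentose phosphate pathway −0.55 and that of skeletal muscle markers 0.90.

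Markers of other cells were set beside these values. The 11 macrophage markers, of which all but Cd163 were well above background on every scanner array, had a summed scaled intensity of 43.4, 44.7 and 45.1 on Sham replicates 2, 3 and 4 and of 81.9, 43.8, 37.1 and 41.6 on TAC replicates 1 to 4, with Itgam the brightest. TAC replicate 1 was thus high in macrophage markers and low in brown adipocyte markers. The summed scaled intensity of extracellular matrix and fibroblast markers was also highest there, at 266 where the other scanner arrays lay between 176 and 218. That of the 6 lymphocyte markers was 9.86 there, where the other scanner arrays lay between 8.56 and 9.31. This array had the lowest level of Slc2a4, Hk2, Pfkl, Gapdh and Ldha, and the second highest of Hk1. The part of this array's cell content in the differences of these genes was not tested, and their differences are given without it above. The median difference was 0.06 for macrophage markers, 0.04 for 6 lymphocyte markers and −0.06 for 7 erythroid markers, and each of these signs turned in the table of 8 arrays, to −0.02, −0.04 and 0.13. It was 0.05 for 8 endothelial markers and 0.07 for 8 markers of the extracellular matrix and fibroblasts. At an unadjusted p under 0.05 on the scanner arrays, 2 endothelial markers and 1 macrophage marker were higher and none of these 5 lists had a lower gene. Over all probes, 4.38% were higher and 8.43% lower at that threshold.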

How the data were processed

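The authors deposited background-subtracted scanner intensity for 7 arrays (Agilent Feature Extraction 10.7.1.1) and scaled intensity for 8. Outlier spots were left out, the log2 intensity was set relative to the 75th percentile of its array, and spots of a probe were averaged. Tested probes had a signal well above background on 3 or more of the 7 arrays and values on 2 or more of either group. The groups were fitted with limma 3.58.1 (R 4.3.3), and p-values were adjusted by Benjamini and Hochberg's method over all 33364 tested probes. Symbols came from RefSeq accessions, and a gene is represented by its brightest probe on average. Correlations used exact permutation in Python 3.11.15 with numpy 2.4.6 and pandas 2.3.3. Named genes come from the 10 genes, the 3 with the smallest p of each list, Acta1, Ckm, Ucp1, Adipoq, and the 3 most similar genes for each of the 10; not all are given, and others are said to be named after their values were seen. The genes and lists were chosen with earlier results of these data known.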

Additional observations from a re-analysis of the deposited data

Results flagged for a closer look

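In the table of 8 arrays, Sham replicate 3 lay apart from the other Sham arrays in the mean level of the 8 markers of extracellular matrix and fibroblasts, at 2.84 where the others lay between 3.21 and 3.27. Its gap to the nearest array was 0.862 of the range of the group, above Dixon's 95% critical value for 4 samples. This was 1 of 50 groups examined, and chance passes this value in about 1 in 20 groups. The same array had the highest level for 9 of the 10 glucose transporter and glycolysis genes. The relation between these values was not tested.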

How the results depend on the processing

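Each of the 10 genes kept the sign of its difference in all 20 alternatives, which changed the scaling, background correction, filter, test or source of the values, or left out an array. The changed filters, the t-test, a variance that depends on intensity and the kept outlier spots left all 10 differences as reported. Those alternatives are thus no separate check of the sign. An unadjusted p under 0.05 was found in 20 of 20 for Pfkl, Pfkp and Ldha, in 19 of 20 for Gapdh and Pkm, in 5 for Pfkm, in 3 for Slc2a4 and Hk1, in 1 for Hk2 and in 0 for Slc2a1. None of the 10 genes passed an adjusted p under 0.05 in any of them. The relation with Acta1 was run under its own alternatives. An unadjusted exact p of r under 0.05 was found in 1 of these, without Sham replicate 2 and TAC replicate 3, for Pfkm (0.025) with r above 0 and for Gapdh (0.0347) and Ldha (0.0403) with r below 0. By rho, the exact p was under 0.05 in more alternatives. For Pfkm, with rho above 0, these were the scanner values and the table without Sham replicate 1 (0.048 each). The mean of the muscle markers gave 0.0458. With rho below 0, Hk2 passed without Sham replicate 2 (0.0341), and Gapdh (0.0238), Pkm and Ldha (0.0341 each) without TAC replicate 3. Gapdh (0.0167) and Slc2a4, Hk2, Pkm and Ldha (0.0333 each) did so without both of those arrays, with the group means left in. With the group means taken out of the 8 arrays, rho was −0.33 for Gapdh, −0.21 for Slc2a4 and −0.57 for Hk2. It was 0.05 for Pkm and −0.26 for Ldha. The p adjusted over all probes and the share of all probes were computed for the 8 arrays of the table alone. How common such values of r or rho are among all probes was therefore not examined in the alternatives.

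The count of all probes past an adjusted p under 0.05 was 0 with the values as reported, 1 with median centring, 1 with normexp background correction, and 0 to 8 with an array left out, the 8 without TAC replicate 4. The t-test of the authors' methods in place of limma's gave 0, with 1602 higher and 2587 lower at an unadjusted p under 0.05. At an unadjusted p under 0.05 the leave-one-out counts ran from 893 to 1562 probes higher and from 1602 to 2995 lower, with both lowest values without Sham replicate 3. The median difference of the 10 genes ran from −0.57, without Sham replicate 2, to −0.30. The cause was not tested. With median centring 24.3% of the probes with an unadjusted p under 0.05 were higher and 75.7% lower, with quantile normalization 40.4% and 59.6%, and with scaling to the 75th percentile 34.2% and 65.8%.

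In the table of 8 arrays, an alternative for the ratios chosen after seeing the data, Hk2 over Hk1 was 0.042 in place of −0.043, and Pfkm over Pfkl kept its direction at 0.60 (exact permutation p 0.0571). Both changes come with the added Sham replicate 1.

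With the replicate number as a block, the median of the 10 genes was −0.44 on the scanner arrays, where TAC replicate 1 has no partner, and −0.30 in the table. The labels number the replicates without stating pairs.

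With 3 and 4 arrays a group, wide intervals remain for all genes. Intensity near background allows only a bound on a fold, as for Ldhc. Probes differ in brightness, so a ratio of probes or the brightest gene of a list gives no ratio of transcripts. Coordinates of the probes were not used, so which transcripts of a gene each probe reads was not examined.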
